A study of Mus musculus with 4 samples.

Results

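The genes described here are the 9 that encode the T cell receptor signalling complex and its first intracellular steps: the signalling chains Cd3d, Cd3e, Cd3g and Cd247, the coreceptor Cd4, the kinases Lck and Zap70, and the adaptors Lat and Lcp2. They were chosen by symbol, as the entries of this name in both tables of UMI counts (UMIs, unique molecular identifiers, tag captured RNA molecules so that amplified copies are not counted again), and all 9 were found among 32285 genes. Hepatic CD4+ T cells were flow sorted from WT mice and from dKO mice (Nr4a1 fl/fl Nr4a2 fl/fl with the Cd4Cre transgene), in which Cre recombinase removes the transcription factor genes Nr4a1 and Nr4a2 in T cells. All mice ate CD, a choline-deficient diet with 0.1% methionine and 60 kcal% from fat, during 8 weeks, which is a model of steatohepatitis. RNA and T cell receptor sequences were read from the same cells, with the cells of 2 mice pooled into 1 library per genotype. Cells of the pooled mice are not told apart, so genotype, pool and library cannot be told apart, and no test between genotypes was run.

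T cells recognise antigen through an αβ receptor that has no signalling tail of its own. The CD3δ, CD3ε and CD3γ chains and the CD247 (ζ) chain carry the tyrosine motifs that are phosphorylated by LCK, which is brought to the receptor by CD4. Phosphorylated motifs bind ZAP-70, and ZAP-70 in turn phosphorylates LAT and SLP-76 (the product of Lcp2), on which the downstream signalling enzymes assemble.

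After removal of cells with 200 or fewer genes or with 5% or more mitochondrial counts, 10556 cells of the WT-labelled library and 17462 of the dKO-labelled library remained, with 23437516 and 37794986 UMIs and medians of 1679 and 1685 UMIs per cell. The 9 genes together took 0.391% and 0.410% of all UMIs. No gene of the set was used to gate cells. Marker gates left 7991 and 12278 T-gated cells (75.7% and 70.3%), at medians of 1669 and 1369 UMIs, divided into Foxp3, Ifng, Il17, cycling, naive-like and other T-gated classes. Outside them were plasmacytoid dendritic cell-like (pDC-like, 1195 and 2360 cells), myeloid-like (449 and 576), mixed lineage (472 and 1775, of which 468 and 1769 also passed the pDC gate), low ribosomal (323 and 376) and type 17 innate-like cells (74 and 52). Mature DC-like and B cell-like cells numbered under 50 in each library and are not described. At least 1 productive TRA or TRB contig was found in 44.0% of T-gated cells of the WT-labelled library and in 36.1% of the dKO-labelled library, and 245 cell barcodes occur in both libraries.

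RNA of the targeted genes was not lower in the dKO-labelled library. In T-gated cells Nr4a1 was at 737 CPM (UMIs of a gene relative to all UMIs of the same cells, scaled as parts in 1e6) in the WT-labelled library and at 1943 CPM in the dKO-labelled library, and Nr4a2 was at 199.5 and 439 CPM. Counts per gene do not show which exons were read, so these levels do not show whether the alleles were deleted. The third gene of the family, Nr4a3, which was not targeted, was at 295 and 298 CPM, and Foxp3 was at 53.8 and 265 CPM, with 441 and 3231 cells in the Foxp3 class. The libraries are therefore named by their labels, and every direction below is that of the labels.

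Cd3g, Cd3d and Cd3e lie together in a block of 40056 bases on chromosome 9 (GRCm38), Cd3g at chr9:44969572-44980431 on the minus strand, Cd3d at chr9:44981786-44987339 on the plus strand and Cd3e at chr9:44998740-45009627 on the minus strand. Cd3g and Cd3d are divergent, with 1355 bases between their start positions. Cd247 lies on another chromosome, at chr1:165788681-165877277 on the plus strand. Cd4 is at chr6:124864692-124888221 (minus), Lck at chr4:129548344-129573641 (minus), Zap70 at chr1:36761798-36782818 (plus), Lat at chr7:126363824-126369570 (minus) and Lcp2 at chr11:34046920-34092295 (plus). The files identify them as ENSMUSG00000032094 (Cd3d), ENSMUSG00000032093 (Cd3e), ENSMUSG00000002033 (Cd3g), ENSMUSG00000005763 (Cd247), ENSMUSG00000023274 (Cd4), ENSMUSG00000000409 (Lck), ENSMUSG00000026117 (Zap70), ENSMUSG00000030742 (Lat) and ENSMUSG00000002699 (Lcp2). The RefSeq promoter table (GRCm38.p6) matched 8 of the 9 genes, at 11 start sites, and all but Cd4. The 250 bases upstream of the start sites of the 4 signalling chains are printed because the levels of the clustered CD3 genes and of Cd247 differed in opposite directions between the libraries. Each is given 5′ to 3′ on the strand of its gene, with capitals marking matches, on either strand, to 5 motifs: Ets (AGGAAG), Runx (TGTGGT), TCF (CTTTGA), the TATA box (TATAAA) and the NBRE (AAAGGTCA), the element that NR4A proteins bind. The windows are chr9:44980432-44980681 for Cd3g, chr9:44981536-44981785 for Cd3d, chr9:45009612-45009861 for Cd3e and chr1:165788431-165788680 for Cd247.
Cd3g: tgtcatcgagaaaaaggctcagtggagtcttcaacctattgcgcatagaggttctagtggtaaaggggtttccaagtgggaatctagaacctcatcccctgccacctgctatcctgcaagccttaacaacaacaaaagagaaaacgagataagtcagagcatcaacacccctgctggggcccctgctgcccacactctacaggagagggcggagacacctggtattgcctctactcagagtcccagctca
Cd3d: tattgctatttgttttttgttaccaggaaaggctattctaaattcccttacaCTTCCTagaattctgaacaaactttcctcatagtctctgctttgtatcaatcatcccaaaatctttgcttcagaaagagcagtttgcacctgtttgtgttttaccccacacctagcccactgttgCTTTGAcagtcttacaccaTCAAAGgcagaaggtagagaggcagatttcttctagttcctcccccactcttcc
Cd3e: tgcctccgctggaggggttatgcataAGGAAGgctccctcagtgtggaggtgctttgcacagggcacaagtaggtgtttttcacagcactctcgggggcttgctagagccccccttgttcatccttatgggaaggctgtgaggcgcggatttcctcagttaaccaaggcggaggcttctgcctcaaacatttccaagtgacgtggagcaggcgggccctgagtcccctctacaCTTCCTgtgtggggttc
Cd247: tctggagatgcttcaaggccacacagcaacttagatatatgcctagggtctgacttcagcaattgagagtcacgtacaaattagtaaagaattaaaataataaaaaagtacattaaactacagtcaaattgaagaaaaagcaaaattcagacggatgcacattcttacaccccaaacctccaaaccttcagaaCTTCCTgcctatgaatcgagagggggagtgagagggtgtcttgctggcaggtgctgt

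These letters matched 1 Ets and 2 TCF motifs upstream of Cd3d, 2 Ets motifs upstream of Cd3e, 1 Ets motif upstream of Cd247 and none of the 5 motifs upstream of Cd3g. The Ets letters occur in 29.5% of 32851 windows of the same length, the TCF letters in 13.8%, Runx in 14.0%, TATA in 12.4% and the NBRE in 1.34%. Of the 8 matched genes, Cd3g was the one with no Ets match in any window, and a window of Zap70 was the one with an NBRE match. A match describes letters and is not evidence of binding.

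In T-gated cells the 3 clustered CD3 genes were higher in the dKO-labelled library, Cd247 was lower, and Cd4 differed by far more than any other gene of the set. Levels are in CPM, and the intervals in parentheses are exact 95% intervals that cover counting error only, not the difference between mice. Cd3d, which encodes CD3δ, was at 725 CPM in the WT-labelled library and at 1048 CPM in the dKO-labelled library, a log2 ratio of 0.53 (0.50 to 0.56). Cd3e, which encodes CD3ε, was at 904 and 1196 CPM, a log2 ratio of 0.40 (0.38 to 0.43). Cd3g, which encodes CD3γ, was at 869 and 1195 CPM, a log2 ratio of 0.46 (0.43 to 0.49). All 3 were thus higher in the dKO-labelled library, by 1.45-, 1.32- and 1.37-fold. Cd247, which encodes the ζ chain, was at 360.2 and 324 CPM, a log2 ratio of −0.15 (−0.20 to −0.10). Under 11 alternatives of the processing the ratio of Cd247 ranged from −0.49 to −0.06. Summed over the 4 chains, the level was 2858 CPM in the WT-labelled library and 3763 CPM in the dKO-labelled library. Over all kept cells, in which T-gated cells made up a smaller share of the dKO-labelled library, the sums were 2293 and 2359.8 CPM and differed by 1.03-fold.

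Within the 6 T-gated classes the CD3 genes differed most in Foxp3, Ifng and other T-gated cells and least in cycling and Il17 cells. The classes are exclusive and were taken in the order cycling, Foxp3, Il17, Ifng and naive-like, so each cell is in the first class that it met. Foxp3 cells are those with a UMI of Foxp3, the transcription factor of regulatory T cells, that did not pass the cycling gate. There Cd3e was at 896 CPM in the WT-labelled library and at 1273 CPM in the dKO-labelled library (log2 ratio 0.51, 0.41 to 0.60), and Cd3d was at 761 and 1149.6 CPM (0.60, 0.49 to 0.70). In Ifng cells, those with a UMI of the type 1 cytokine gene, Cd3d was at 699 and 1090.3 CPM (0.64, 0.55 to 0.73). Il17 cells, with a UMI of Il17a or Il17f, held Cd3d at 719 and 715 CPM, with an interval of the log2 ratio from −0.23 to 0.22. In cycling cells Cd3g was at 746 and 735 CPM, with an interval from −0.12 to 0.08. Counted over the 6 classes, the interval lay above 0 in 5 for Cd3d, in 4 for Cd3e and in 4 for Cd3g, and lay below 0 in none. For Cd247 it lay below 0 in 4 classes and above 0 in none. The Il17 class held Cd247 at 371 and 248 CPM (−0.58, −0.93 to −0.23), whereas Foxp3 cells held it at 354 and 348 CPM (−0.02, −0.18 to 0.14).

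**Figure D1:**
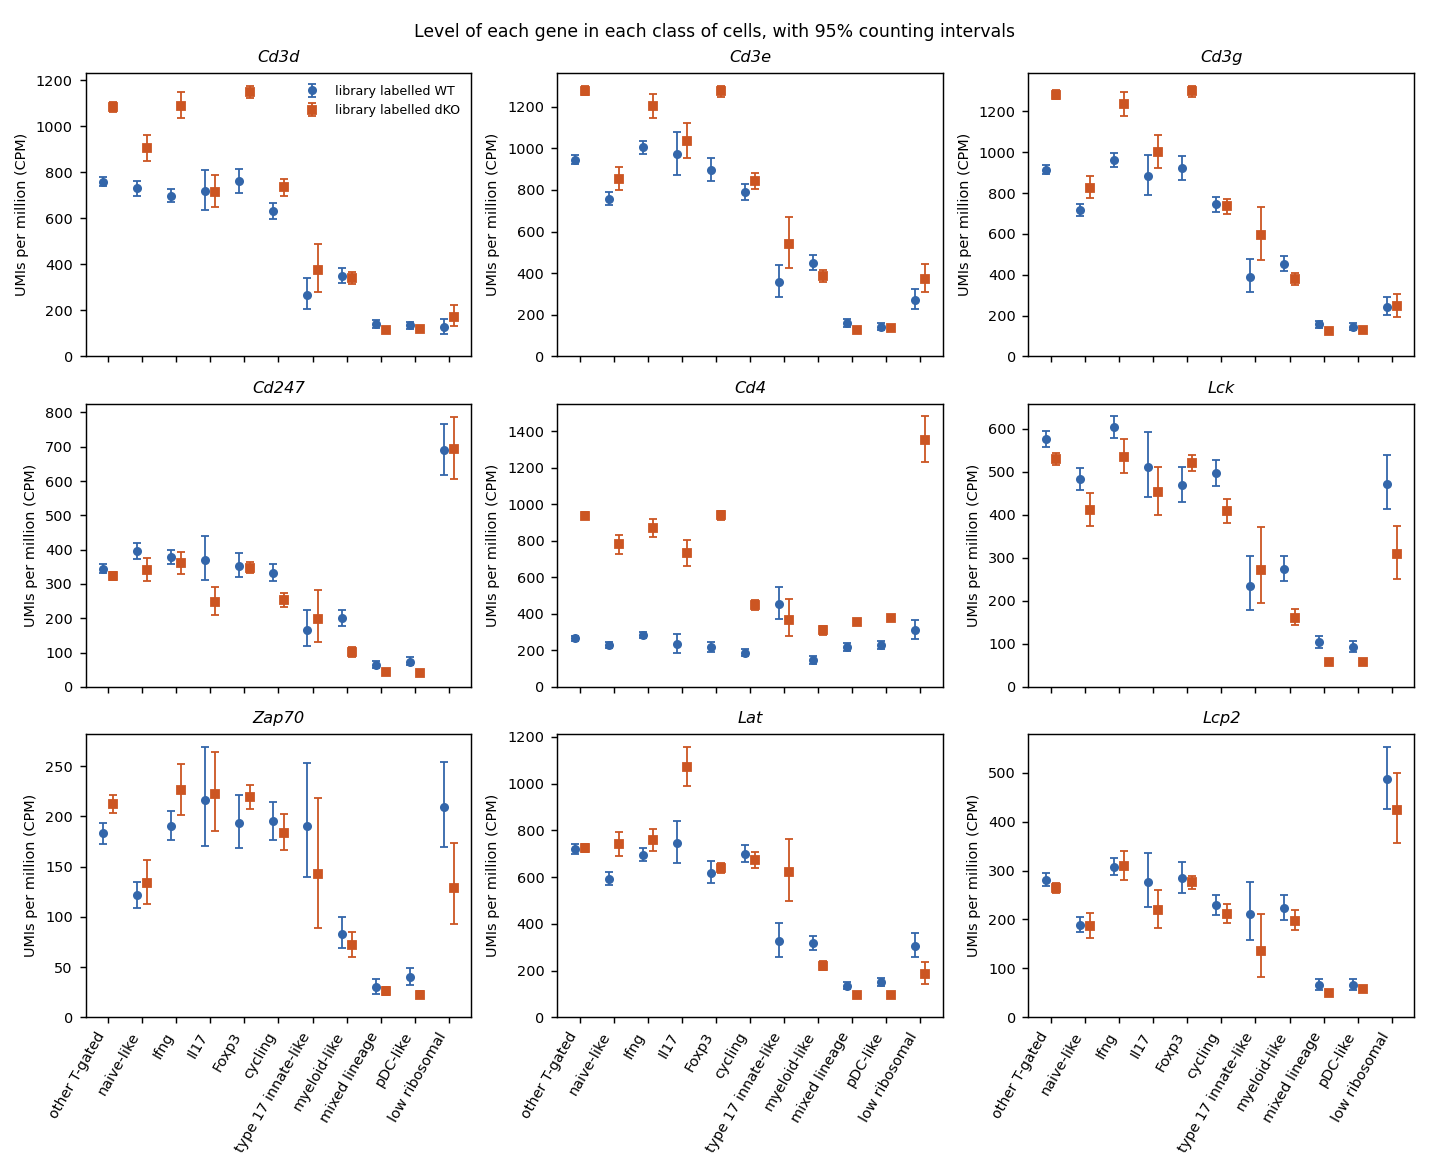
Level of each of the 9 genes (vertical axis, CPM, each panel with its own scale from 0) in 11 classes of cells, with circles for the WT-labelled library, squares for the dKO-labelled library and bars for 95% counting intervals. Cd4 in the 6 T-gated classes sits between 188 and 285 CPM in the WT-labelled library and between 448 and 940.4 CPM in the dKO-labelled library, and Cd247 and Lcp2 are highest in low ribosomal cells.

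Cd4, the coreceptor for MHC class II and the marker by which these cells were sorted, was at 250.3 CPM (243 to 258) in T-gated cells of the WT-labelled library and at 869 CPM (856 to 881) in the dKO-labelled library. The difference was 3.47-fold (3.36 to 3.59), a log2 ratio of 1.80. The ranges of the 6 classes did not overlap between the libraries. Cycling cells were at 188 and 448 CPM, naive-like cells at 230.3 and 780.3 CPM, Il17 cells at 235 and 731 CPM, Ifng cells at 285 and 868 CPM, other T-gated cells at 266 and 937 CPM and Foxp3 cells at 219 and 940.4 CPM. The ratio was lowest in cycling cells, at 2.38-fold (2.12 to 2.68), and highest in Foxp3 cells, at 4.30-fold (3.78 to 4.92), and these intervals do not overlap. Under 10 alternatives of the processing the ratio in Foxp3 cells ranged from 3.61- to 6.05-fold. Among 3574 genes with 50 CPM or more in either library and no fewer than 10 UMIs in the library with less, Cd4 ranked 42 from the highest log2 ratio in T-gated cells, and among 3710 such genes of Foxp3 cells it ranked 8. Cre in dKO mice is expressed from Cd4 control sequences, and its part in the Cd4 level cannot be told apart from that of the floxed alleles, the pool or the library. T-gated cells of the dKO-labelled library also held more Foxp3 cells (3231 against 441), and the summed level of the 4 regulatory T cell markers was 2820 against 717 CPM. With equal weight for the 6 classes the log2 ratio of Cd4 was 1.73, and in T-gated cells without a UMI of any lineage marker it was 1.82.

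Cell by cell, Cd4 UMIs were found in fewer T-gated cells of the WT-labelled library than of the dKO-labelled library. To compare cells at equal depth, 1000 UMIs were drawn from each cell, and 1336 and 2731 T-gated cells with fewer were left out. At that depth 21.7% (20.8 to 22.8) of 6655 T-gated cells of the WT-labelled library and 54.5% (53.5 to 55.5) of 9547 of the dKO-labelled library had a Cd4 UMI, and without thinning the shares were 36.1% and 68.1%. Cd3e was found in 59.0% and 67.2% of the thinned T-gated cells, Cd3d in 50.4% and 62.4%, and Cd247 in 29.1% and 27.3%. For comparison, in pDC-like cells without a contig (727 and 2181 thinned cells, at medians of 1711 and 2843 UMIs before thinning, against 1893 and 1574 in T-gated cells), Cd3e was found in 7.15% and 6.56% of cells. Cd4, which mouse pDCs can express, was found there in 19.3% and 26.6% of cells. In the WT-labelled library the intervals of the Cd4 share overlapped between T-gated and pDC-like cells (20.8 to 22.8 and 16.5 to 22.3), and in the dKO-labelled library they did not.

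At this depth most T-gated cells showed some but not all of the 4 signalling chains. In thinned T-gated cells no chain was found in 7.53% of cells of the WT-labelled library and in 5.24% of the dKO-labelled library. All 4 were found in 5.41% and 9.57%, and 3 of them in 25.0% and 32.6%. In pDC-like cells without a contig 78.4% and 86.5% of cells had none, and all 4 were found in 0 of 727 cells, with an upper limit of 0.506%, and in 1 of 2181.

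**Figure D2:**
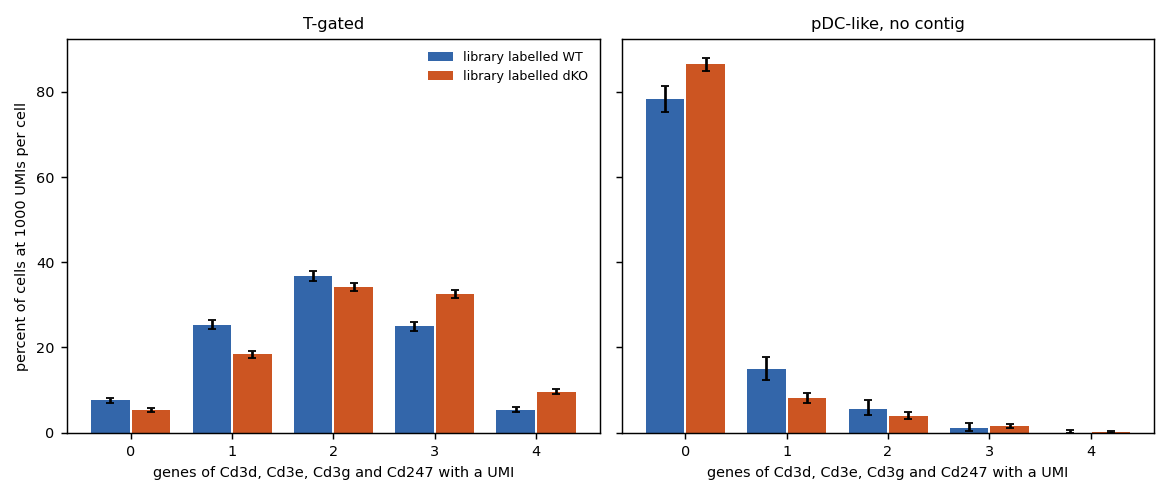
Percent of cells (vertical axis) by how many of Cd3d, Cd3e, Cd3g and Cd247 had a UMI (horizontal axis) after thinning to 1000 UMIs per cell, for T-gated cells and for pDC-like cells without a contig, with Clopper-Pearson 95% intervals. T-gated cells of the dKO-labelled library are shifted to 3 and 4 chains (32.6% and 9.57%, against 25.0% and 5.41%), and 78.4% and 86.5% of pDC-like cells have 0.

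In T-gated cells the kinases differed by less than 1.5-fold between the libraries. Lck, the Src-family kinase that phosphorylates the receptor chains, was at 547 CPM in T-gated cells of the WT-labelled library and at 506 CPM in the dKO-labelled library, a log2 ratio of −0.11 (−0.15 to −0.07). Its interval lay below 0 in 4 of the 6 classes and above 0 in Foxp3 cells, at 468 and 519.6 CPM (0.15, 0.02 to 0.29). Zap70, which binds the phosphorylated chains, was at 177 and 208 CPM, a log2 ratio of 0.24 (0.17 to 0.30). It was lowest of the 6 classes in naive-like cells of both libraries, at 121 and 133 CPM. Outside the T gate the kinases were lower in the dKO-labelled library in several classes. Lck was 0.62-fold the level of the WT-labelled library in pDC-like cells, 0.59-fold in myeloid-like, 0.55-fold in mixed lineage and 0.65-fold in low ribosomal cells, and Zap70 was 0.55-fold in pDC-like and 0.61-fold in low ribosomal cells, each with an interval below 1. In pDC-like cells Zap70 was at 40.3 and 22.2 CPM, under the 50 CPM needed to be counted against the 1.5-fold threshold.

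The adaptors were near level over T-gated cells as a whole. Lat, the membrane adaptor that ZAP-70 phosphorylates, was at 684 and 706 CPM, a log2 ratio of 0.05 (0.01 to 0.08). With ribosomal, mitochondrial and receptor genes and Malat1 left out of the denominator it was −0.0010. By class Lat differed most in Il17 cells, at 747 CPM in the WT-labelled library and 1071 CPM in the dKO-labelled library (0.52, 0.31 to 0.73), and was also higher in naive-like cells, at 592 and 740.2 CPM (0.32, 0.20 to 0.44). Lcp2, which encodes the cytosolic adaptor SLP-76, was at 265 and 259.5 CPM (−0.03, −0.09 to 0.03). Like Zap70 it was lowest of the 6 classes in naive-like cells, at 189 and 186 CPM, and these were 0.72-fold the level over T-gated cells in both libraries. Ribosomal protein genes took 30.5% and 30.8% of UMIs in naive-like cells, against 22.7% and 20.4% over T-gated cells. Their part in the Zap70 and Lcp2 levels was not tested.

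**Figure D3:**
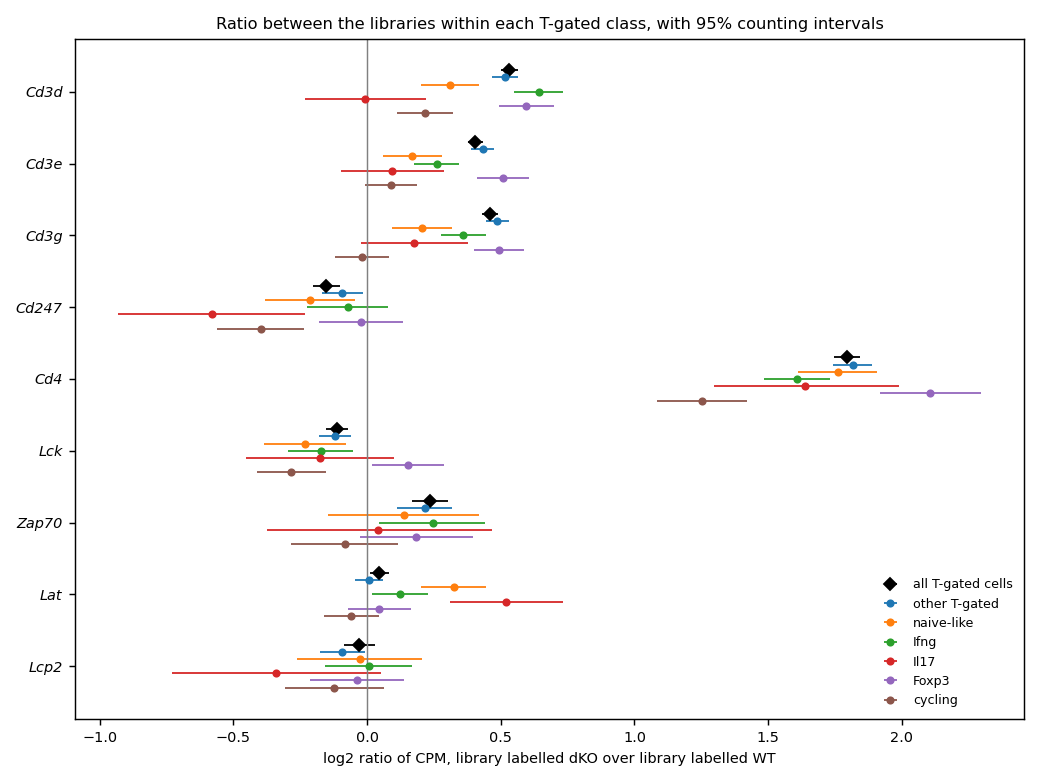
Log2 ratio of CPM of the dKO-labelled library over the WT-labelled library (horizontal axis) for each of the 9 genes in all T-gated cells (diamonds) and in the 6 T-gated classes (circles), with 95% counting intervals. Cd4 lies between 1.25 and 2.11 in every class, whereas the other 8 genes lie between −0.58 and 0.64.

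A gene was counted as past the threshold when its levels differed by 1.5-fold or more. In T-gated cells 1 of the 9 genes, Cd4, was past it upward and 0 downward, where 9.01% of the 3574 genes tested were past it upward and 6.41% downward. The share of members upward is thus near the background. In Foxp3 cells 2 of 9, Cd4 and Cd3d, were past it upward and 0 downward (background 9.35% and 8.6%), and in Ifng cells the same pair was upward and 0 downward (5.6% and 7.5%). In each of the other 4 T-gated classes Cd4 alone was past it upward and 0 were downward. The background there was 4.63% upward and 8.86% downward in cycling cells, 8.81% and 13.6% in Il17 cells, 4.78% and 3.85% in naive-like cells and 8.83% and 5.92% in other T-gated cells. The median log2 ratio was 0.24 over the 9 genes in T-gated cells and 0.04 over all genes tested.

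Cells with a receptor contig and cells without one had similar levels of the signalling chains within the T gate. In the WT-labelled library the summed chains were at 2943 CPM in 3518 T-gated cells with a contig and at 2758 CPM in 4473 without one, a log2 ratio of 0.09 (0.07 to 0.12). In the dKO-labelled library they were at 3728 CPM in 4436 cells with a contig and at 3789.7 CPM in 7842 without, a log2 ratio of −0.02 (−0.04 to −0.00350). T-gated cells without a contig thus held the RNA of the signalling chains at nearly the level of those with one. Cells with a contig were deeper, at medians of 2120 and 1373 UMIs with and without one in the WT-labelled library. When each cell counted equally, by the mean of the cells' own CPM, the log2 ratios were 0.15 and 0.06, so the sign turned in the dKO-labelled library. No gene of the set was past 1.5-fold in either library, where 0.771% and 1.45% of all genes tested were higher and 0.326% and 0.29% were lower. Cd4 was at 244 and 258 CPM with and without a contig in the WT-labelled library, and at 800.2 and 922 CPM in the dKO-labelled library (−0.20, −0.25 to −0.16).

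In the pDC-like gate the contig marked cells that carried the T cell genes. A contig was found in 78 of 1195 pDC-like cells of the WT-labelled library (6.53%) and in 167 of 2360 of the dKO-labelled library (7.08%). The 4 chains were at 1362 CPM with a contig and 345 CPM without one in the WT-labelled library, and at 1575 and 291 CPM in the dKO-labelled library, which is 3.95- and 5.41-fold. Lck (227 and 70.2 CPM in the WT-labelled library, 204 and 40.6 CPM in the dKO-labelled library) and Zap70 (115 and 27.1 CPM, 88.5 and 14.3 CPM) had the same direction. Cd4 did not share this split in the WT-labelled library, at 245 and 226 CPM with and without a contig (log2 ratio 0.12, −0.24 to 0.46), and in the dKO-labelled library it was at 505 and 361 CPM (0.48, 0.33 to 0.64). pDC-like cells with a contig had a median of 3553 UMIs in the WT-labelled library against 1203 without one, and the part of depth in these values was not tested.

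**Figure D4:**
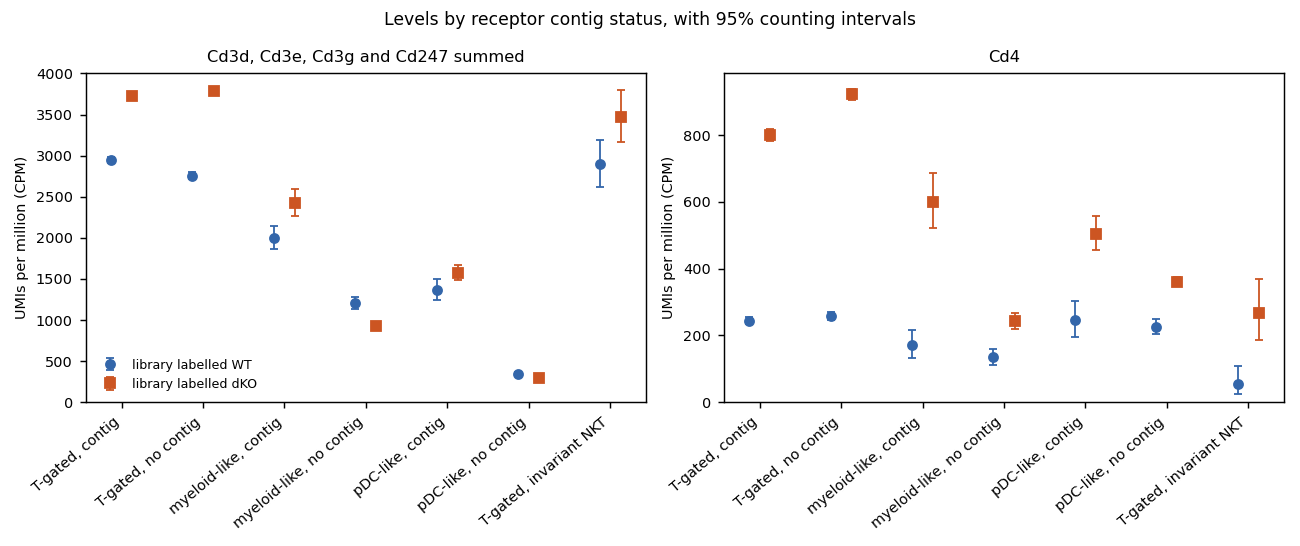
Levels (vertical axes, CPM, from 0) of the 4 signalling chains summed and of Cd4 in cells with and without a receptor contig and in invariant NKT cells, with circles for the WT-labelled library, squares for the dKO-labelled library and bars for 95% counting intervals. The chains stand at 1362 and 1575 CPM in pDC-like cells with a contig and at 345 and 291 CPM in those without one, whereas T-gated cells with and without a contig lie close together.

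Relative to Cd3e, the intervals of T-gated cells and of cells without a contig lay apart in both libraries for Cd4, Lcp2 and Lat in pDC-like cells and for Lcp2 in myeloid-like cells. UMIs of each gene were divided by UMIs of Cd3e in the same cells, and these ratios are compared between classes and not between genes. Per Cd3e UMI, T-gated cells had 0.802 Cd3d UMIs in the WT-labelled library and 0.876 in the dKO-labelled library, and pDC-like cells without a contig had 1.01 (0.819 to 1.25) and 0.917 (0.816 to 1.03). Lck was at 0.605 and 0.423 in T-gated cells and at 0.729 (0.578 to 0.918) and 0.432 (0.373 to 0.50) in pDC-like cells without a contig. For Lck the pDC-like ratio was thus within counting error of the T-gated ratio in both libraries. Cd4 was at 0.277 and 0.726 per Cd3e UMI in T-gated cells, but at 2.35 (1.97 to 2.81) and 3.85 (3.52 to 4.21) in pDC-like cells without a contig. Lcp2 was likewise higher there, at 0.552 and 0.530 against 0.293 and 0.217, and Lat was at 1.34 and 0.742 against 0.757 and 0.590. In myeloid-like cells without a contig Cd4 was at 0.339 (0.274 to 0.416) and 0.840 (0.730 to 0.965) and Lck at 0.591 and 0.461, with intervals that overlapped those of T-gated cells. Lat was lower there in the WT-labelled library, at 0.621 (0.524 to 0.734), and at 0.590 in the dKO-labelled library, whereas Lcp2, which myeloid cells also use, was at 0.556 and 0.637. As levels, Cd4 in pDC-like cells without a contig was 0.90-fold that of T-gated cells in the WT-labelled library and 0.42-fold in the dKO-labelled library, where the 4 chains were 0.12- and 0.08-fold. Markers of pDCs summed to 16093 and 15371 CPM in the pDC-like gate and to 195 and 270.1 CPM in T-gated cells.

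**Figure D5:**
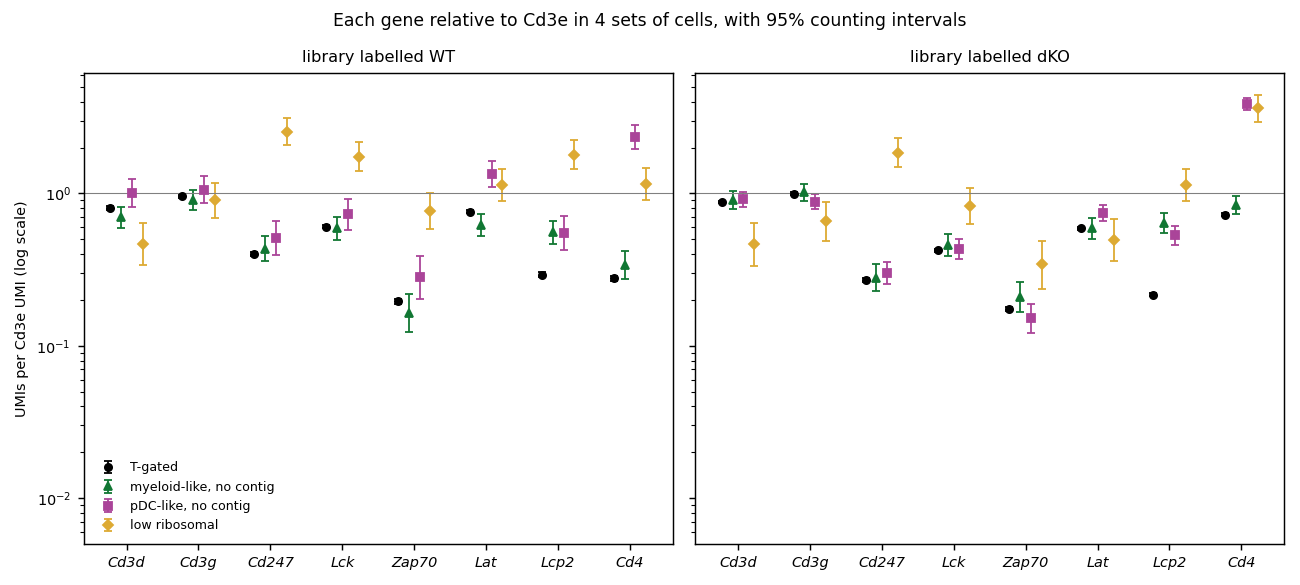
UMIs of 8 genes per Cd3e UMI (vertical axis, log scale) in T-gated cells, myeloid-like and pDC-like cells without a contig and low ribosomal cells of each library, with 95% counting intervals. Cd4 in pDC-like cells stands at 2.35 and 3.85, above the T-gated values of 0.277 and 0.726, and low ribosomal cells stand above T-gated cells in Cd247, Lcp2, Lck, Zap70 and Cd4 and below them in Cd3d in both libraries.

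Cd4 was higher in the dKO-labelled library outside the T gate as well. pDC-like cells without a contig were at 226 and 361 CPM (1.60-fold, 1.44 to 1.78), while their Cd3e was at 96.3 and 94.0 CPM. Myeloid-like cells without a contig were at 135 and 243 CPM, and low ribosomal cells at 311 and 1353 CPM. Both sets also held Cd3e, at 397 and 289 CPM in the myeloid-like cells and at 271 and 373 CPM in the low ribosomal cells. Per Cd3e UMI, Cd4 of the myeloid-like cells overlapped that of T-gated cells, as given above. The part of T cell RNA in the Cd4 levels of these sets was not tested. Type 17 innate-like cells, gated on genes such as Il23r, were the class with no higher Cd4, at 454 and 368 CPM (0.81-fold, 0.57 to 1.13), in 74 and 52 cells. The myeloid-like gate was not alike in composition, since neutrophil markers summed to 12.7 CPM in the WT-labelled library and to 7299 CPM in the dKO-labelled library, and their part in its values was not tested. In pDC-like cells 8 genes of the set were tested, with Zap70 left out under the minimum. Of these 8, Cd4 alone was past 1.5-fold upward and 3 were past it downward (background 3.95% upward and 3.49% downward). Cd247 was at 73.7 and 40.7 CPM, Lck at 93.6 and 58.1 CPM and Lat at 151 and 96.8 CPM, and pDC-like cells of the dKO-labelled library were deeper (medians 2891 against 1287 UMIs).

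Low ribosomal cells, with under 7% of UMIs from ribosomal protein genes, had another order of the 9 genes. Relative to T-gated cells of the same library, Cd247 was higher by a log2 ratio of 0.94 in the WT-labelled library and 1.10 in the dKO-labelled library, and Lcp2 by 0.88 and 0.71. Cd3d differed by −2.51 and −2.60, Cd3g by −1.83 and −2.29, Cd3e by −1.74 and −1.68 and Lat by −1.16 and −1.93. Per Cd3e UMI the ζ chain gene Cd247 was at 2.54 and 1.86, against 0.399 and 0.271 in T-gated cells, and Zap70 was at 0.769 and 0.344, against 0.196 and 0.174. Most genes differed between these classes, since 55.5% and 57.7% of all genes tested were past 1.5-fold upward and 20.6% and 21.3% downward.

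Among T-gated cells with both chains sequenced, members of large clones had higher levels of the receptor chains than cells with a unique receptor in the dKO-labelled library, and a smaller difference in the WT-labelled library. A clone is the set of cells with the same TRA and TRB. In the dKO-labelled library the 4 chains were at 3183 CPM in 1053 unique cells and at 4512 CPM in 750 cells of clones of 5 or more (1.42-fold, log2 ratio 0.50, 0.46 to 0.55). In the WT-labelled library they were at 2883 CPM in 1182 cells and at 3077 CPM in 534 (1.07-fold, log2 ratio 0.09, 0.04 to 0.15). Cd247 differed in opposite directions, from 275 to 427 CPM in the dKO-labelled library and from 393 to 341 CPM in the WT-labelled library, with intervals of the log2 ratio from 0.48 to 0.79 and from −0.35 to −0.05. Relative to the WT-labelled library, Cd247 was thus lower in unique cells and higher in large clones of the dKO-labelled library. Cd4 was at 652 and 963 CPM in unique and large clones of the dKO-labelled library and at 233 and 259 CPM in the WT-labelled library. Zap70 had the same direction in both, at 185 and 273 CPM and at 168 and 207 CPM, and so did Lck, at 475 and 566 CPM and at 501 and 641 CPM. Lat was at 660.1 and 806 CPM in unique cells and large clones of the WT-labelled library and at 717 and 663 CPM in the dKO-labelled library. In large clones of the dKO-labelled library 1 of the 9 genes, Cd247, was past 1.5-fold upward and 0 downward (background 5.55% and 4.26%), and in the WT-labelled library 0 were past it either way (7.67% and 3.98%). The large clones differed in makeup, since Foxp3 cells were 10 of 534 cells of such clones in the WT-labelled library and 240 of 750 in the dKO-labelled library, against 110 of 1182 and 294 of 1053 unique cells. Within Foxp3 cells of the dKO-labelled library the differences of the chains and Cd4 had the same direction and smaller point values, which were not tested against those over all T-gated cells, with the 4 chains at 3657 CPM in unique cells and 4669 CPM in large clones (1.28-fold, 1.21 to 1.35), Cd3e 1.20-fold, Cd3g 1.31-fold, Cd247 1.46-fold and Cd4 1.16-fold (1.03 to 1.31) higher in large clones. The 10 Foxp3 cells of large clones in the WT-labelled library, with 3 Cd4 UMIs, were too few for this comparison. Large clones are few, and the largest, with 244 T-gated cells in the dKO-labelled library, had Cd4 at 1105 CPM and Lat at 489 CPM. The largest clone of the WT-labelled library, with 65 cells, had Cd4 at 189.6 CPM and Lat at 933 CPM. Without the largest clone of each library, large clones of the dKO-labelled library had Lat at 734 CPM, so its lower level in large clones was not present (log2 ratio 0.03, −0.09 to 0.15), and the 4 chains were 1.43- and 1.10-fold higher in large clones of the dKO- and WT-labelled libraries.

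Between the libraries, Cd4 in unique cells was at 233 and 652 CPM (2.80-fold, 2.58 to 3.04). It was 3.02-fold higher in clones of 2 to 4 cells and 3.72-fold higher in clones of 5 or more (3.32 to 4.18). Over T-gated cells with a TRB contig the log2 ratio was 1.71 for Cd4 and 0.33 for the 4 chains, against 1.80 and 0.40 over all T-gated cells. With 1 of these cells kept per TRB sequence, the one with most UMIs, it was 1.51 and 0.16.

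Invariant NKT cells, recognised by a TRAV11 with TRAJ18 receptor, had a sum of the 4 chains near that of other T cells, with single chains in opposite directions, and little Cd4. In 51 and 56 such cells the 4 chains were at 2893 and 3470.5 CPM, against 2952 and 3659 CPM in T-gated cells with both chains sequenced. Cd4 was at 55.4 CPM (8 UMIs, 23.9 to 109) in the WT-labelled library and at 266 CPM (35 UMIs) in the dKO-labelled library, which is 0.23- and 0.35-fold the level in cells with both chains. Lat was at 422 and 387 CPM, 0.59- and 0.54-fold. Among the chains, Cd247 was at 249 and 137 CPM, 0.66- and 0.42-fold, whereas Cd3d was at 789 and 1276 CPM, 1.05-fold (0.863 to 1.26) and 1.25-fold (1.06 to 1.45).

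Of the other genes of the pathway, more were past the threshold downward than upward in the dKO-labelled library. Of 63 listed genes that are no members, 49 passed the minimum in T-gated cells, of which 3 were past 1.5-fold upward and 14 downward (background 9.01% and 6.41%), with a median log2 ratio of −0.28 against 0.04 over all genes tested. Of 12 adaptors tested, 6 were past it downward and 0 upward. Grap2, which encodes the SLP-76 partner GADS, was at 827 and 241 CPM (log2 ratio −1.78, −1.83 to −1.74), Trat1, a receptor-associated transmembrane adaptor, at 152 and 51.1 CPM and Pag1, which recruits the LCK inhibitor CSK, at 199 and 81.3 CPM. Skap1 (834 and 485 CPM), Themis (342 and 186 CPM) and Lax1 (66.9 and 36.3 CPM) completed the 6.

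Among 6 kinases tested, 3 were past the threshold downward and 1, Lyn, upward, at 31.0 and 88.0 CPM. Of those downward, Prkcq, which encodes PKCθ, was at 195 and 92.2 CPM and Txk at 99.2 and 65.9 CPM. Markers of pDCs were also higher in T-gated cells of the dKO-labelled library, as given above. The part of RNA from other cell types in the Lyn level was not tested. Fyn, the other Src-family kinase of the receptor, was at 307 and 279.9 CPM. Of 12 negative regulators, Dusp2 (411 and 214 CPM), Dgka (219.9 and 144 CPM) and Ubash3a (114 and 74.7 CPM) were past the threshold downward and Ubash3b, a phosphatase that acts on ZAP-70, upward, at 59.2 and 102 CPM. Of 10 effectors, Nfatc2 was among those downward, at 79.6 and 50.5 CPM. The coreceptors and costimulators held 1 of 6 upward, the adhesion receptor Cd2, at 412 and 698 CPM, while the phosphatase gene Ptprc (CD45) was at 1069 and 1024 CPM. None of the 3 constant genes of the receptor tested was past it, with Trac at 320.4 and 368 CPM. In Foxp3 cells 0 of 49 genes were past the threshold upward and 13 downward (background 9.35% and 8.6%), among them all 6 adaptors named above, with Grap2 at 630.2 and 212 CPM and Trat1 at 136 and 38.1 CPM.

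Across 22 profiles, 1 for each class of 50 or more cells in each library, the members fell into groups by their likeness to the 4 summed chains. Pearson's r of log2(CPM + 10) with the sum, which shares UMIs with the chains themselves, was 0.990 for Cd3e, 0.974 for Cd3g, 0.953 for Lck, 0.945 for Lat, 0.938 for Cd3d and 0.905 for Zap70. It was lower for Cd247 (0.808) and Lcp2 (0.778) and lowest for Cd4 (0.320). Among 6365 other genes, those most like the chains were Shisa5 (0.956), Gimap4 (0.936), Sh2d1a, Sh2d2a, Cd2, Gimap5, Impdh1 and Pglyrp2 (0.920). Those most like Cd4 were mt-Nd6 (0.839), Gdpd3, mt-Atp8, Myo1d, Hip1r, Tigit, Ccn4 and Iigp1. Those most like Lcp2 were Ttc39b (0.966), Rap1b, Ptpn22, Plk3, Zdhhc18, Cd6, Stk10 and Tes. These names depend on the measure, since by Spearman's rho 3 of the 8 genes were shared for the chains, 5 for Cd4 and 1 for Lcp2. The profiles of a library share its depth and preparation, so these values are descriptions.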

How the data were processed

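The authors deposited UMI counts per gene and cell for 1 pooled library per genotype, made with Cell Ranger 7.0.1 on mm10 per the submitters' processing notes, without normalization, and tables of productive TRA and TRB contigs. The deposited tables hold 10602 and 17645 cells with 23494155 and 37966611 UMIs, and no cell has under 500. Flow cytometry and bulk data of the study were not analysed here. The gene set, gates and lists were chosen with earlier results of these data known.

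As in the study's methods, cells needed over 200 genes and less than 5% mitochondrial UMIs. Cells with 3 or more UMIs over a list of pDC, myeloid, mature DC or B cell markers were set aside, as were cells with under 7% ribosomal UMIs and cells with 3 or more type 17 innate genes. Cycling cells had 3 or more genes of a list that includes Mki67, and naive-like cells 3 or more of a list that includes Ccr7. Doublets were kept, and candidates were removed as an alternative. Counts were summed per class and library and given in CPM with exact Poisson intervals. Ratios have exact conditional binomial intervals and shares have Clopper-Pearson intervals, all at 95%, covering counting error only. Genes past 1.5-fold were counted among those with 50 CPM in a library and 10 UMIs in the lower one. Thinning used seed 1. Named genes were the 9 members, the 8 most like the chains, Cd4 and Lcp2, the pathway genes past the threshold and up to 2 examples per role. Some genes that this rule names are counted but not reported here.

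On simulated T-gated counts, 100% of 199 genes changed by 2-fold among 3352 were called and 0% of the others, and 94.8% of intervals held the true value. Both simulated libraries were drawn from a shared profile with counting error only. These shares therefore check the calculation and do not cover differences between mice, pools or cells. Gene positions come from GENCODE vM21 on GRCm38 and promoters from RefSeq. Python 3.11.15, numpy 2.4.6, pandas 2.3.3, scipy 1.17.1 and matplotlib 3.10.9 were used, with edgeR 4.0.16 in R 4.3.3 for TMM factors alone, whose log2 ratio was −0.02 in T-gated cells.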

Additional observations from a re-analysis of the deposited data

Results flagged for a closer look

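The log2 ratio of the dKO-labelled library over the WT-labelled library had an interval above 0 in some of 11 classes and below 0 in others for 6 of the genes, and these differences were not tested. No share of all genes that meet this rule is given beside the count, so it is not read as a trait of the set. For Lat the ratio was 0.93 in type 17 innate-like cells and −0.73 in low ribosomal cells, a difference of 1.66. Zap70 was at 0.24 in Ifng cells and −0.86 in pDC-like cells, a difference of 1.10. Lck was at 0.15 in Foxp3 cells and −0.86 in mixed lineage cells, a difference of 1.01. The 3 clustered CD3 genes shared the low class, mixed lineage cells. Cd3g was at 0.61 in type 17 innate-like cells and −0.34 there, a difference of 0.943, Cd3e was at 0.59 in type 17 innate-like cells and −0.31 there, a difference of 0.905, and Cd3d was at 0.64 in Ifng cells and −0.26 there, a difference of 0.904. The intervals of the CD3 genes in mixed lineage cells spanned 0 when these cells were divided by contig, which 66 of 472 cells had in the WT-labelled library and 142 of 1775 in the dKO-labelled library. With and without a contig the ratio was 0.00038 and 0.21 for Cd3d, 0.14 and −0.06 for Cd3e and −0.01 and 0.03 for Cd3g, whereas Lck was at −0.52 in both. Cd4, Cd247 and Lcp2 had no such pair of classes.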

How the results depend on the processing

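Of 202 values recomputed under an alternative, 129 stayed within their counting interval, 70 moved and 3 were classed as reversed in sign. The log2 ratio of Lcp2 in T-gated cells, −0.03 (−0.09 to 0.03), also turned within its counting interval. It was above 0 under 2 of 11 alternatives, at 0.023 at most. In T-gated cells the log2 ratio of Cd4 kept its direction under 11 of 11 alternatives and ranged from 1.51 to 1.88: it was 1.71 in cells with a TRB contig, 1.51 with 1 of these kept per clonotype, 1.87 by averaging the cells' own CPM, 1.88 in cells with 1000 to 2000 UMIs and 1.73 with equal weight for the 6 classes. The ratio of the 4 chains was 0.33, 0.16, 0.46, 0.43 and 0.26 under the same alternatives in that order, 0.42 with TMM factors and 0.35 with ribosomal, mitochondrial and receptor genes and Malat1 left out of the denominator. That denominator gave chain levels of 3806 and 4852 CPM, Cd4 levels of 333 and 1120.2 CPM and a log2 ratio of Lat of −0.0010. Averaging the cells' own CPM gave 2911 and 3992 CPM for the chains and 258 and 947 CPM for Cd4, and log2 ratios of the chains with over without a contig of 0.15 in the WT-labelled library and, with the sign turned from −0.02, 0.062 in the dKO-labelled library. Cells with TRA and TRB gave a contig ratio of −0.051 in the dKO-labelled library. Cd4 UMIs per Cd3e UMI were 1.61 and 2.75 over all pDC-like cells and 2.35 and 3.85 without the cells that have a contig. The log2 ratio of Lat in large clones over unique cells of the dKO-labelled library turned from −0.11 to 0.032 without the largest clone. The share of T-gated cells with a Cd4 UMI was 37.9% and 73.3% at 2000 UMIs and 36.1% and 68.1% without thinning. With 1 cell per clonotype 1 pathway gene was past 1.5-fold upward and 13 downward, against 3 and 14. By Spearman's rho 3, 5 and 1 of the 8 genes most like the chains, Cd4 and Lcp2 were shared. Leaving Cd68, Clec9a and Cd209a out of the myeloid-like gate moved most mixed lineage cells to the pDC-like class, which then held 1619 and 4040 cells. This alternative, the TRB base, the largest clones, the depth range, the equal weights and the cells with no lineage marker UMI were chosen after seeing the data. The causes of these shifts were not tested. No paired analysis was possible because each genotype has 1 library. With 1 library per genotype, no value here has an error between mice, and a gene at 0 in T-gated cells could still have 3 UMIs.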

Other observations

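In low ribosomal cells the levels of the 9 genes, relative to T-gated cells, went with the length of the gene, a relation looked at after their levels were known. Across the 9 genes, Spearman's rho between the annotated span of a gene and its log2 ratio of low ribosomal over T-gated cells was 0.90 in the WT-labelled library and 0.933 in the dKO-labelled library. At the long end, Cd247 spans 88597 bases and Lcp2 45376 bases, and both were higher in low ribosomal cells. At the short end, Cd3d spans 5554 bases and Lat 5747 bases, and both were lower. The 9 genes share libraries and cells, so this is a description of these 9 genes.

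Cd247 was closer to Lcp2 than to the sum of the 4 receptor chains across the 22 profiles. Its Pearson's r was 0.933 with Lcp2 and 0.808 with the sum of the 4 chains that contains it.

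T-gated cells with a UMI of Cd8a or Cd8b1, which encode the coreceptor of cytotoxic T cells, were few, at 117 and 322, and their Cd4 level was 251 and 775 CPM, against 250.3 and 869 CPM over all T-gated cells. Cd8b1 itself was at 7.25 and 15.8 CPM in T-gated cells and at 256 and 298 CPM in pDC-like cells.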
